A study of Mus musculus with 24 samples.

Results

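The 10 genes described here encode AP-1 and immediate early factors. Fos, Fosb, Fosl1, Fosl2, Jun, Junb and Jund belong to the AP-1 family, and Atf3 is related to it. Egr1 and Ier2 are immediate early factors outside that family. The genes were taken by name from the deposited count table, in which each has 1 protein coding gene, so they are 10 of 56748 genes. The rule used their names and no measured value. All 10 passed the low count filter in every comparison.

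AP-1 is a dimer. Members of the Jun family (Jun, Junb, Jund) pair with each other or with members of the Fos family (Fos, Fosb, Fosl1, Fosl2) through a leucine zipper and bind short DNA elements in promoters and enhancers, whereas Fos proteins cannot pair among themselves. Fos, Fosb, Junb, Egr1 and Ier2 are immediate early genes: serum, growth factors or shear stress switch them on within minutes through kinases and the serum response factor, without new protein synthesis, and their messengers are short-lived. Atf3 is a related stress-induced factor, Egr1 a zinc finger factor known in endothelial cells for its response to flow and injury, and Ier2 a nuclear protein of the same early wave. In endothelial cells, AP-1 is known for its part in inflammatory gene expression, proliferation and vessel sprouting.

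RNA was sequenced from liver cells of C57BL/6 mice, stated to be 3-month-old females, which had been enriched with magnetic beads against Cd31 (endothelial cells) or Cd146 (sinusoidal endothelial cells) and grown in culture with 10% fetal calf serum. Every group carried a lentivirus for 1 week. The silencing vector held either a non-coding hairpin (nc shRNA) or a hairpin against the cell cycle inhibitor P16Ink4a (P16 shRNA). The other vector held either no insert (empty vector) or P16Ink4a fused to GFP (P16), so every control was transduced too. The 2 populations and 4 constructs give 8 groups of 3 libraries, with 15409767 to 26470392 counts per library, which is the n = 3 given beside the sequencing results, whereas the methods give n = 6. Replicates carry numbers from the labels, and no source says whether a number is an animal, a culture or a day. The spread between libraries may thus be partly technical.

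The libraries did not look alike in their marker genes. Endothelial markers summed to 25.8 to 1619 normalized CPM (counts scaled to library size) per library and mesenchymal and stellate cell markers to 6530 to 50575 CPM, with Col1a1, a fibrillar collagen, at a median of 10952 CPM. Col1a2, Col3a1, Acta2 and Pdgfrb of that list had medians of 313 CPM or more. In contrast, its genes Lrat, Des and Tagln had medians of 0, 2.18 and 12.8 CPM. Of the endothelial markers, Emcn, Mcam (the gene of Cd146), Pecam1 (the gene of Cd31) and Cdh5 had medians of 171, 149, 145 and 110 CPM. Of the sinusoidal markers, Lyve1 had a median of 1.24 CPM, Stab2 one of 0.392 CPM and Clec4g one of 0 CPM. The rest of the endothelial list lay between 4.77 CPM (Tek) and 29.3 CPM (Egfl7). Macrophage markers summed to 14.5 to 353 CPM and cholangiocyte markers to 38.4 to 982 CPM. Hepatocyte markers summed to 0.171 to 10.6 CPM and lymphoid markers to 0 to 0.590 CPM. In 3 Cd146+ libraries, those numbered 3 with nc shRNA, P16 shRNA and P16, the endothelial sum was 49.3, 25.8 and 39.2 CPM, against at least 242 CPM in each of the other 21. In a bulk culture, fewer cells of a type and less RNA per cell cannot be told apart.

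The libraries also fell into 2 sets by the X-linked transcript Xist and the Y-linked gene Ddx3y. In 8 libraries, numbered 4, 5 or 6, Xist had 6698 to 17948 counts and Ddx3y had 0. In the other 16, numbered 1, 2 or 3, Ddx3y had 986 to 2976 counts and Xist had 0 to 4, against the stated sex. Of the Cd31+ libraries 2 held Xist, and of the Cd146+ libraries 6. All 6 libraries of the Cd31+ silencing comparison held Ddx3y, whereas the other 3 comparisons mix both sets. Because the set coincides with the replicate number, sex, animal or culture and batch cannot be told apart.

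Cdkn2a, the gene of P16Ink4a, served as a check of the constructs. With P16 shRNA it stood at 6.67 ± 2.23 CPM (SD, n = 3) in Cd31+ cells, against 56.8 ± 19.9 CPM with nc shRNA, and in Cd146+ cells at 14.9 ± 9.5 CPM against 139 ± 52.1 CPM. With the P16 construct it stood at 230 ± 96.7 CPM against 56.8 ± 23.7 CPM with empty vector in Cd31+ cells, and at 498 ± 308 CPM against 92.0 ± 19.4 CPM in Cd146+ cells. The groups did not overlap in any of the 4 comparisons. With the P16 construct the rise differed between numbers. In Cd31+ cells, the log2 difference from empty vector was 2.77 for number 2 and 0.78 for number 5. In Cd146+ cells it was 1.16 for number 5, the only number that both groups share. The Cdkn2a count covers all transcripts of the gene and, with the P16 construct, may include those of the vector.

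The promoters of 5 genes are printed because the silencing results below turn on Fos, Fosb and Atf3 and because their partners Jun and Junb did not share that direction in the same libraries. Each is the stretch of 200 bases before the annotated start of the gene, read in the direction of transcription, from RefSeq's mouse assembly GRCm38.p6. Fos lies at chr12:85473690-85473889 on the plus strand, Fosb at chr7:19310046-19310245, Jun at chr4:95052223-95052422, Junb at chr8:84978749-84978948 and Atf3 at chr1:191183334-191183533, these 4 on the minus strand. Capitals mark matches on either strand to the AP-1 element TGANTCA, to TGANNTCA (which takes in the cAMP response element and the variant in Jun), to its core TGACGT, to the CArG box bound by the serum response factor, to TATAAA and to CCAAT.
Fos: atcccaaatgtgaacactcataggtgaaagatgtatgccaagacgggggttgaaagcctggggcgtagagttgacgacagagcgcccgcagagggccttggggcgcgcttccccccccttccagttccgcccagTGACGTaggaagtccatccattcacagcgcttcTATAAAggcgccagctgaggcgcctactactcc
Fosb: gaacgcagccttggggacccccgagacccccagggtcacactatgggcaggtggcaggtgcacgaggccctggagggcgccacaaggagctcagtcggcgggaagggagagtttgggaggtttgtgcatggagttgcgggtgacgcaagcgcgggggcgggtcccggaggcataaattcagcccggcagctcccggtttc
Jun: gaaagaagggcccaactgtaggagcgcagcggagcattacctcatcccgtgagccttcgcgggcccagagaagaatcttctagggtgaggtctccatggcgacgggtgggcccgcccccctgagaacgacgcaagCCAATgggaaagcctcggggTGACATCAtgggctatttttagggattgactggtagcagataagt
Junb: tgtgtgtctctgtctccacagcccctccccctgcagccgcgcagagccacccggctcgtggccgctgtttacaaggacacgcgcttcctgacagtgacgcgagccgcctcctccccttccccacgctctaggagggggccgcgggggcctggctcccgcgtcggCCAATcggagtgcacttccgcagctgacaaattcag
Atf3: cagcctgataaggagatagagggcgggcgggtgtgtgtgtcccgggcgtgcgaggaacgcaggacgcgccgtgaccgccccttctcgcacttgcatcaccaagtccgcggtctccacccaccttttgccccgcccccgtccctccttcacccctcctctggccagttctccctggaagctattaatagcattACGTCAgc

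The Fos promoter held TGACGT at bases -66 to -61 and TATAAA at -33 to -28 from the start, and that of Jun held CCAAT at -65 to -61 and TGANNTCA at -45 to -38. Junb held CCAAT at -36 to -32, and Atf3 held TGACGT on the reverse strand at -8 to -3. The Fosb window held none of the 6 motifs. Sites further than 200 bases before the start lie outside the windows, so a missing match does not mean that the gene lacks the motif. Among 32851 windows of 200 bases before the starts of all genes in the table, 5.48% held TGANTCA, 10.2% TGANNTCA, 5.85% TGACGT, 1.18% a CArG box, 9.96% TATAAA and 29.3% CCAAT. Of the 10 genes 7 had a window, and Fosl2 and Jund are not printed. No sequence is given for Fosl1, Egr1 or Ier2.

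Levels of different genes were compared as CPM per kilobase of gene length over all 24 libraries. Junb was the most abundant, at 115.6 ± 43.0 CPM per kilobase (SD, n = 24), followed by Egr1 (74.2 ± 45.4) and Ier2 (71.7 ± 38.5). Jund (47.4 ± 9.99), Jun (37.2 ± 9.74) and Fosl2 (30.1 ± 5.55) came next, then Fos (19.1 ± 13.6), Atf3 (6.03 ± 1.81), Fosl1 (4.01 ± 1.13) and Fosb (0.746 ± 0.383). Between neighbours in this order, Fos was above Atf3 and Fosl1 above Fosb in 24 of 24 libraries, and Atf3 was above Fosl1 in 22. Egr1 was above Ier2 in only 10 of 24, and Ier2 above Jund and Jun above Fosl2 in 16 each, so these neighbours do not differ beyond the spread between libraries. The genes also differed in how far the libraries spread. From the lowest to the highest library, the CPM of Egr1 spanned 10.5-fold, Fos 9.46-fold, Ier2 6.92-fold, Fosb 6.49-fold and Fosl1 6.10-fold, against 3.68-fold for Junb.

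**Figure D1:**
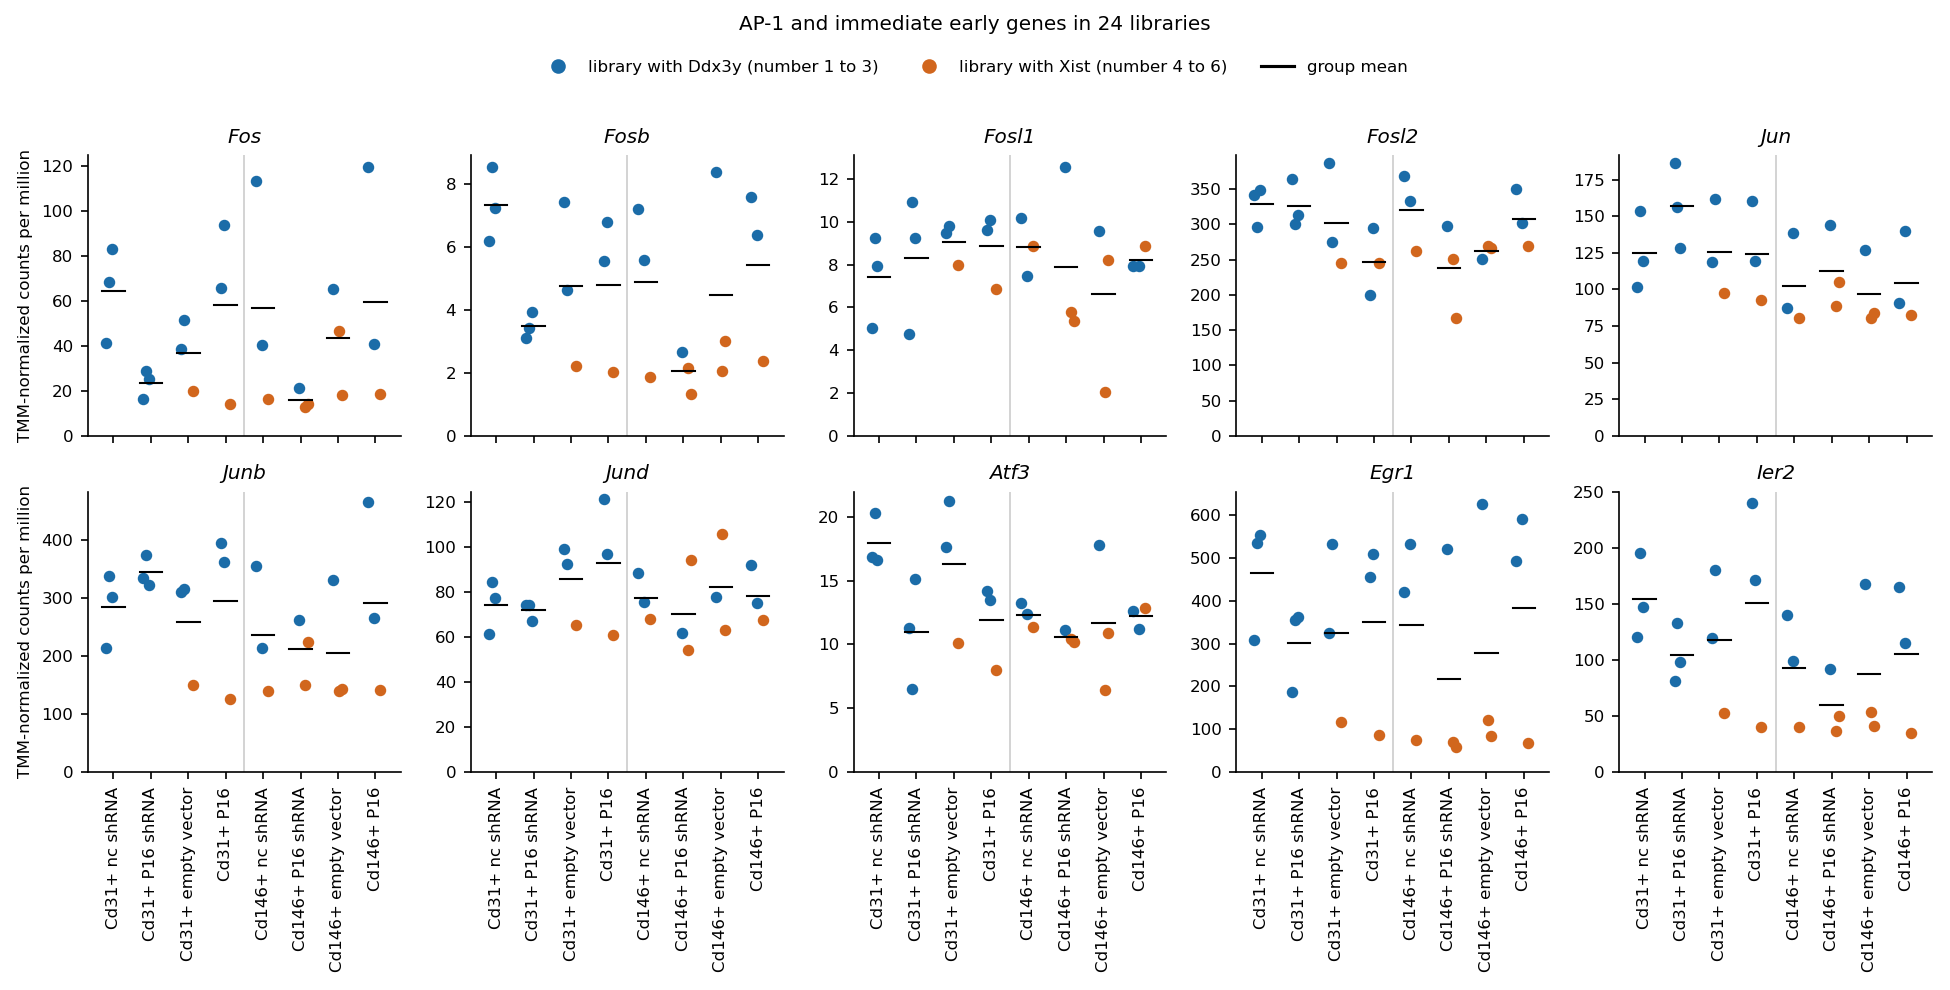
CPM of the 10 genes in all 24 libraries (vertical axis, CPM) by group (horizontal axis), with points coloured by whether the library holds Xist or Ddx3y and a line at the group mean. Egr1 and Ier2 are low in every library with Xist (59.4 to 121 CPM and 34.7 to 54.1 CPM) whatever the construct.

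Within the Fos family, taken as CPM per kilobase, Fosl2 made up 58.8 ± 12% (SD, n = 24) and Fos 31.9 ± 14%, whereas Fosl1 made up 7.93 ± 2.7% and Fosb 1.32 ± 0.44%. Within the Jun family, Junb made up 56.2 ± 7.2%, Jund 24.7 ± 5.9% and Jun 19.1 ± 3.6%. In Cd31+ cells, the share of Fos was 40.6 ± 8.2% with nc shRNA and 20.6 ± 5.3% with P16 shRNA (n = 3 each), and that of Fosl2 was 52.1 ± 9.1% and 69.8 ± 8.4%. In the libraries with Xist, Fos made up 22.02 ± 7.88% of its family (n = 8) and Junb 48.1 ± 3.6% of its own, and in those with Ddx3y 36.9 ± 13% and 60.3 ± 4.5% (n = 16).

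**Figure D2:**
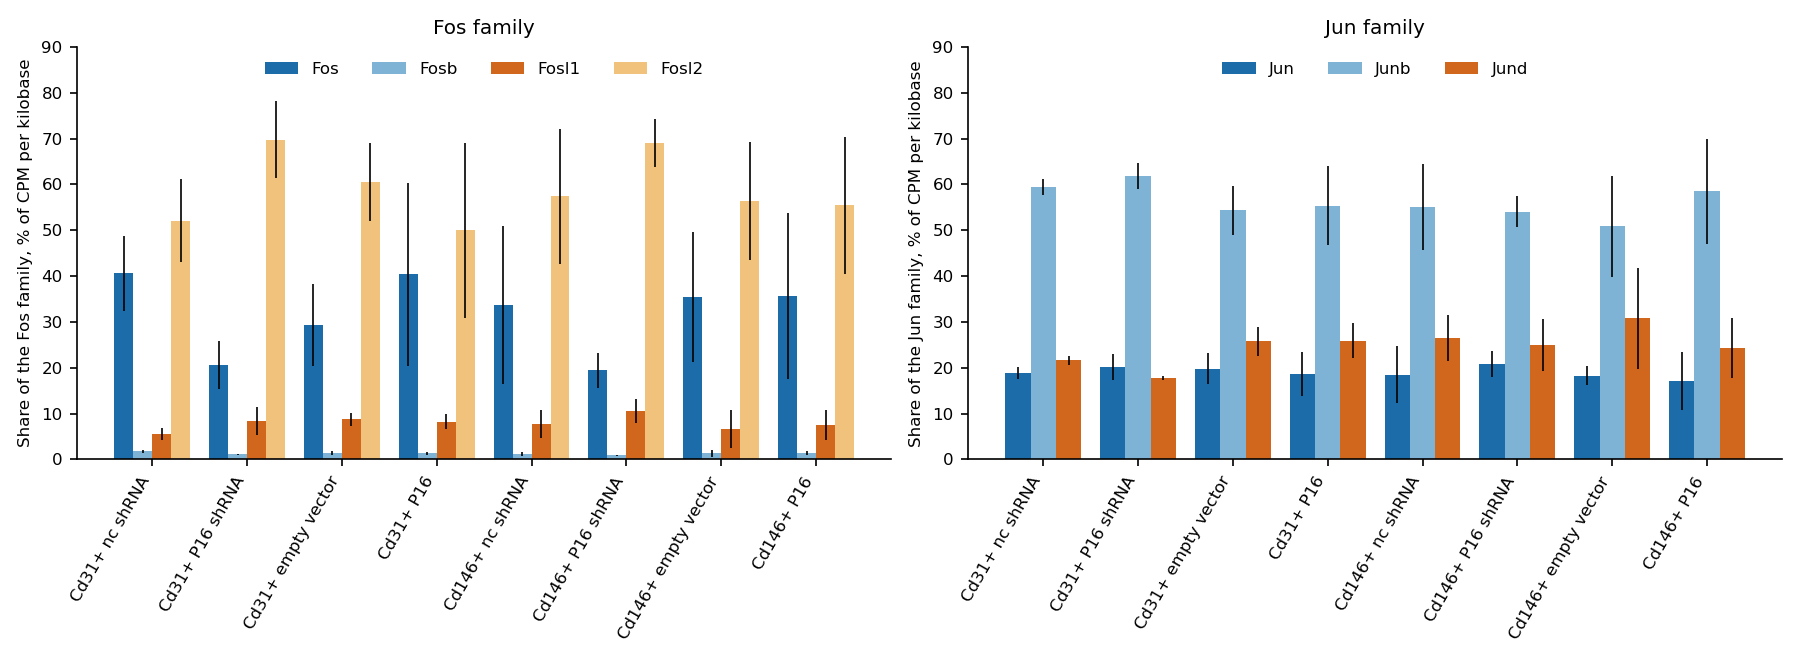
Share of each gene in its family (vertical axis, percent of the family's CPM per kilobase) by group, drawn as bars of the mean with the SD of 3 libraries as error bars, with the Fos and Jun families in panels of their own. Fosl2 and Fos take most of the Fos family in every group, and the share of Fos is 20.6% with P16 shRNA in Cd31+ cells against 40.6% with nc shRNA.

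Silencing of P16Ink4a in Cd31+ cells went with lower Fos, Fosb and Atf3, although the call of Atf3 was lost in most fits that left out 1 library. These were the 3 of 10 members whose groups did not overlap, beside 27.4% of all genes, so that count lies near the background. Fos, the founding member of the family, stood at 41.5, 68.5 and 83.2 CPM in the nc shRNA libraries numbered 1, 2 and 3 and at 16.5, 28.9 and 25.1 CPM in the P16 shRNA libraries of the same numbers. Every P16 shRNA library lay below every nc shRNA library. The means were 23.5 ± 6.36 CPM and 64.4 ± 21.2 CPM (SD, n = 3 each), which is 36.7% of control on the fitted scale, a log2 fold change of -1.45 (SE 0.31, adjusted p = 0.0844, edgeR's quasi-likelihood test, Benjamini-Hochberg adjustment across every gene tested). Within the numbered pairs, the log2 difference of Fos was -1.33, -1.24 and -1.73.

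Fosb, a close relative of Fos that is induced alongside it, stood at 6.19, 8.56 and 7.25 CPM with nc shRNA and at 3.11, 3.44 and 3.95 CPM with P16 shRNA. Its log2 fold change was -1.06 (SE 0.22, adjusted p = 0.0720, edgeR). Atf3, which can repress as well as activate its targets, stood at 16.8, 20.3 and 16.6 CPM with nc shRNA and at 11.3, 6.53 and 15.1 CPM with P16 shRNA. Its log2 fold change was -0.70 (SE 0.29, adjusted p = 0.250, edgeR). In Atf3, most of the difference lay in the pair numbered 2, and the unadjusted call was lost in 5 of the 6 fits that left out 1 library, namely without each nc shRNA library and without the P16 shRNA libraries numbered 1 and 2. The calls of Fos and Fosb at an unadjusted p under 0.05 held in all 6 such fits, with log2 fold changes from -1.70 to -1.22 and from -1.18 to -0.95.

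Egr1 and Ier2 were lower with P16 shRNA in each of the 3 numbered pairs, although their groups overlapped. Egr1 stood at 308, 535 and 554 CPM with nc shRNA and at 186, 356 and 361 CPM with P16 shRNA. The log2 fold change was -0.62 (SE 0.33, adjusted p = 0.354, edgeR), and the libraries numbered 1 were lowest in both groups. Ier2 stood at 121, 196 and 147 CPM and at 81.2, 134 and 98.2 CPM, with a log2 fold change of -0.56 (SE 0.24, adjusted p = 0.258, edgeR). The Jun family did not share this direction. Junb stood at 214, 339 and 302 CPM with nc shRNA and at 335, 375 and 323 CPM with P16 shRNA, a log2 fold change of 0.28 (SE 0.18, adjusted p = 0.430, edgeR), and Jun had one of 0.34 (SE 0.20, adjusted p = 0.391). Both were higher with P16 shRNA in 3 of 3 pairs. For Fosl1, Fosl2 and Jund, the log2 fold changes were 0.17, -0.01 and -0.04.

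At an unadjusted p under 0.05, 3 of the 10 members passed in Cd31+ silencing, all lower, beside 19.8% of all genes tested. After adjustment 0 of 10 passed with edgeR, beside 1.3% of all genes, and 2, Fos (adjusted p = 0.000129) and Fosb (adjusted p = 0.00408), passed with DESeq2's Wald test. The share of all genes under the Wald test is not given here. Groups that did not overlap were seen in 3 of 10 members and 27.4% of all genes. The median log2 fold change was -0.30 over the members and 0.00 over all genes. Because libraries of one number deviate together, the comparison was also fitted with the number as a block. In that fit 6 of 10 members passed unadjusted, beside 33.9% of all genes, and 4 passed after adjustment, beside 18.8%. These 4 were Fos (log2 fold change -1.43, adjusted p = 0.000232), Fosb (-1.05, adjusted p = 0.00718), Egr1 (-0.64, adjusted p = 0.00197) and Ier2 (-0.56, adjusted p = 0.00319), all lower with P16 shRNA. The other two that passed unadjusted were Atf3, which was lower (-0.75), and Junb, which was higher (0.30, adjusted p = 0.112). Over all alternatives, the adjusted p ranged from 1.05e-13 to 0.244 for Fos, from 0.00408 to 0.255 for Fosb, from 0.00098 to 0.682 for Egr1 and from 0.00319 to 0.674 for Ier2. Other cell markers moved as well: the endothelial sum was 386 to 722 CPM with nc shRNA and 242 to 466 CPM with P16 shRNA, and the mesenchymal sum 20126 to 37377 CPM and 24020 to 50575 CPM. Their part in these results was not tested.

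**Figure D3:**
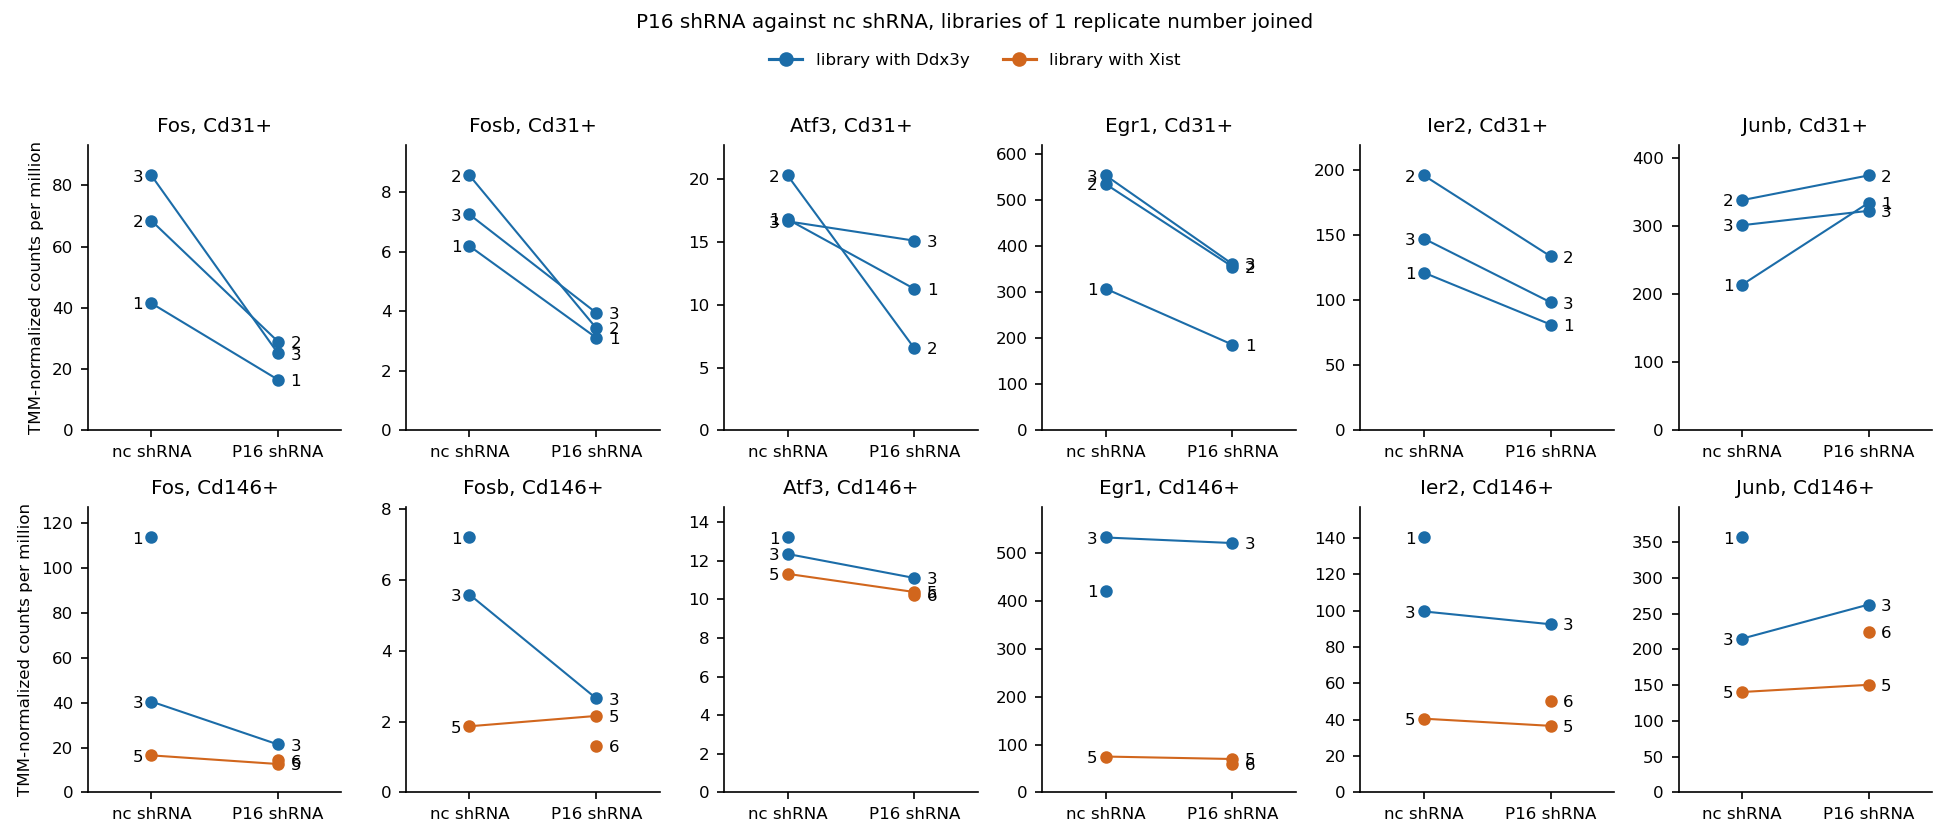
CPM of Fos, Fosb, Atf3, Egr1, Ier2 and Junb (vertical axis, CPM) with nc shRNA and P16 shRNA in Cd31+ and Cd146+ cells, with lines joining libraries of one replicate number. In Cd31+ cells all 3 lines fall for Fos, Fosb, Atf3, Egr1 and Ier2 and rise for Junb, and in Cd146+ cells Fos reaches 114 CPM in the nc shRNA library numbered 1, which has no partner.

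In Cd146+ cells, Fos was again lower with P16 shRNA, but the size of the difference hung on 1 control library. Fos stood at 114, 40.5 and 16.5 CPM in the nc shRNA libraries numbered 1, 3 and 5 and at 21.4, 12.7 and 14.3 CPM in the P16 shRNA libraries numbered 3, 5 and 6. The groups overlapped, since the nc shRNA library numbered 5, which holds Xist, lay below the P16 shRNA library numbered 3, which holds Ddx3y. The log2 fold change was -1.82 (SE 0.68, adjusted p = 0.422, edgeR). Without the nc shRNA library numbered 1 it was -0.84 (adjusted p = 0.889). The call at an unadjusted p under 0.05 was lost there, without each of the P16 shRNA libraries and when all genes with at least 1 count were kept, a fit in which Fosb passed in its place. Within the numbered pairs, the log2 difference was -0.92 for number 3 and -0.38 for number 5. With the number as a block it was -0.66 (adjusted p = 0.218) over the 6 libraries and -0.67 (adjusted p = 0.0209) over all 12 of the population, and with a term for the Xist libraries -1.05 (adjusted p = 0.463). Without the libraries numbered 3, whose endothelial markers are low, it was -2.27 (adjusted p = 0.529, edgeR). With the Ddx3y libraries alone it was -1.87, from 1 P16 shRNA library, that numbered 3, and 2 nc shRNA libraries. Over all alternatives, the adjusted p ranged from 0.0209 to 0.889. The endothelial sum was 49.3 to 1221 CPM with nc shRNA and 25.8 to 1288 CPM with P16 shRNA, and the mesenchymal sum 10775 to 26224 CPM, lowest in the library numbered 1, and 25217 to 30123 CPM. Their part in the result was not tested.

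The other members did not pass the test in Cd146+ silencing. Fosb stood at 7.20, 5.59 and 1.87 CPM with nc shRNA and at 2.66, 2.16 and 1.32 CPM with P16 shRNA, a log2 fold change of -1.25 (SE 0.56, adjusted p = 0.442, edgeR) that was -0.48 with the block. Atf3 had groups that did not overlap, at 13.2, 12.4 and 11.3 CPM against 11.1, 10.4 and 10.2 CPM, yet its log2 fold change was only -0.22 (SE 0.19, adjusted p = 0.640). Egr1 had one of -0.67 (SE 1.03, adjusted p = 0.810), and that of Ier2 was -0.64 (SE 0.52, adjusted p = 0.619). With the block these were -0.07 and -0.13. Egr1 shows how the sets weigh here: with nc shRNA it stood at 421 and 533 CPM in the 2 libraries with Ddx3y and at 75.1 CPM in the one with Xist, and with P16 shRNA at 522 CPM in the one with Ddx3y and at 69.9 and 59.4 CPM in the 2 with Xist. For Fosl2, Jun, Junb, Jund and Fosl1, the log2 fold changes were -0.43, 0.14, -0.16, -0.14 and -0.16.

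In all, 1 of 10 members passed in Cd146+ silencing at an unadjusted p under 0.05, beside 11.6% of all genes, and 0 after adjustment, beside 0% of all genes with edgeR. DESeq2's Wald test gave 2 and 0, for which the shares of all genes are not given here. Groups did not overlap in 1 member and in 20.5% of all genes. With the block over the 6 libraries, 2 members passed unadjusted, Fos and Jund (log2 fold change -0.31, adjusted p = 0.297), beside 16.5% of all genes. With the block over 12 libraries, Fos alone passed after adjustment, beside 8.33% of all genes. The difference between the populations in the response of Fos to silencing was -0.37 on the log2 scale (SE 1.02, adjusted p = 1, edgeR over 24 libraries). Of the 10 members 0 passed this test of the difference at an unadjusted p under 0.05, beside 1.2% of all genes, and 0 after adjustment, beside 0%. With the number as a block within each population 3 passed unadjusted, Fos (0.76), Egr1 (0.61) and Ier2 (0.48), with none after adjustment. In all 3, the fitted difference from control was more negative in Cd31+ cells. The 1.2% belongs to the fit without a block. The share of all genes with the block is not given here, so the 3 cannot be set against a background.

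With overexpression of P16, no member passed the test in either population in the comparison of the 2 groups. In Cd31+ cells, Fos stood at 38.6, 51.8 and 20.0 CPM in the empty vector libraries numbered 1, 2 and 5 and at 66.0, 94.1 and 14.3 CPM in the P16 libraries numbered 2, 3 and 5. The log2 fold change was 0.66 (SE 0.67, adjusted p = 0.950, edgeR). The library with Xist was the lowest in both groups. With the Ddx3y libraries alone, 2 against 2, the value was 0.83 (adjusted p = 0.771, edgeR), which passed unadjusted. With the number as a block over the 6 libraries it was -0.05 (adjusted p = 0.989). Atf3 stood at 17.6, 21.2 and 10.1 CPM and at 14.2, 13.5 and 7.98 CPM (log2 fold change -0.45, SE 0.32, adjusted p = 0.947). Egr1 stood at 324, 532 and 118 CPM and at 456, 509 and 85.9 CPM, a log2 fold change of 0.11. With the block over the 12 libraries of the population it was -0.31 and passed unadjusted (adjusted p = 0.351), and with the Ddx3y covariate Atf3 did (-0.42, adjusted p = 0.787). The members' other log2 fold changes lay between -0.29 (Fosl2) and 0.36 (Ier2). Of the 10 members 0 passed, beside 3.73% of all genes unadjusted and 0% after adjustment. DESeq2's Wald test gave 0 members at both thresholds, and no member had groups that did not overlap, beside 10.7% of all genes.

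In Cd146+ cells, Fos stood at 65.6, 46.8 and 18.3 CPM with empty vector (numbers 2, 4 and 5) and at 120, 40.8 and 18.5 CPM with P16 (numbers 1, 3 and 5), a log2 fold change of 0.46 (SE 0.76, adjusted p = 0.994, edgeR). The 2 libraries numbered 5 were nearly the same. Junb, which pairs with Fos, stood at 332, 141 and 143 CPM and at 467, 266 and 142 CPM (log2 fold change 0.51, SE 0.54, adjusted p = 0.986). The empty vector group holds 2 libraries with Xist and the P16 group 1. Of the 10 members, 9 had a log2 fold change above 0, and with the block over the 12 libraries the members lay between -0.19 and 0.13. Again 0 passed with edgeR, beside 3.53% of all genes unadjusted and 0% after adjustment, and none had groups that did not overlap, beside 8.52%. The difference between the populations in the effect of overexpression passed in 0 members, beside 3.82% of all genes unadjusted and 0% after adjustment.

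**Figure D4:**
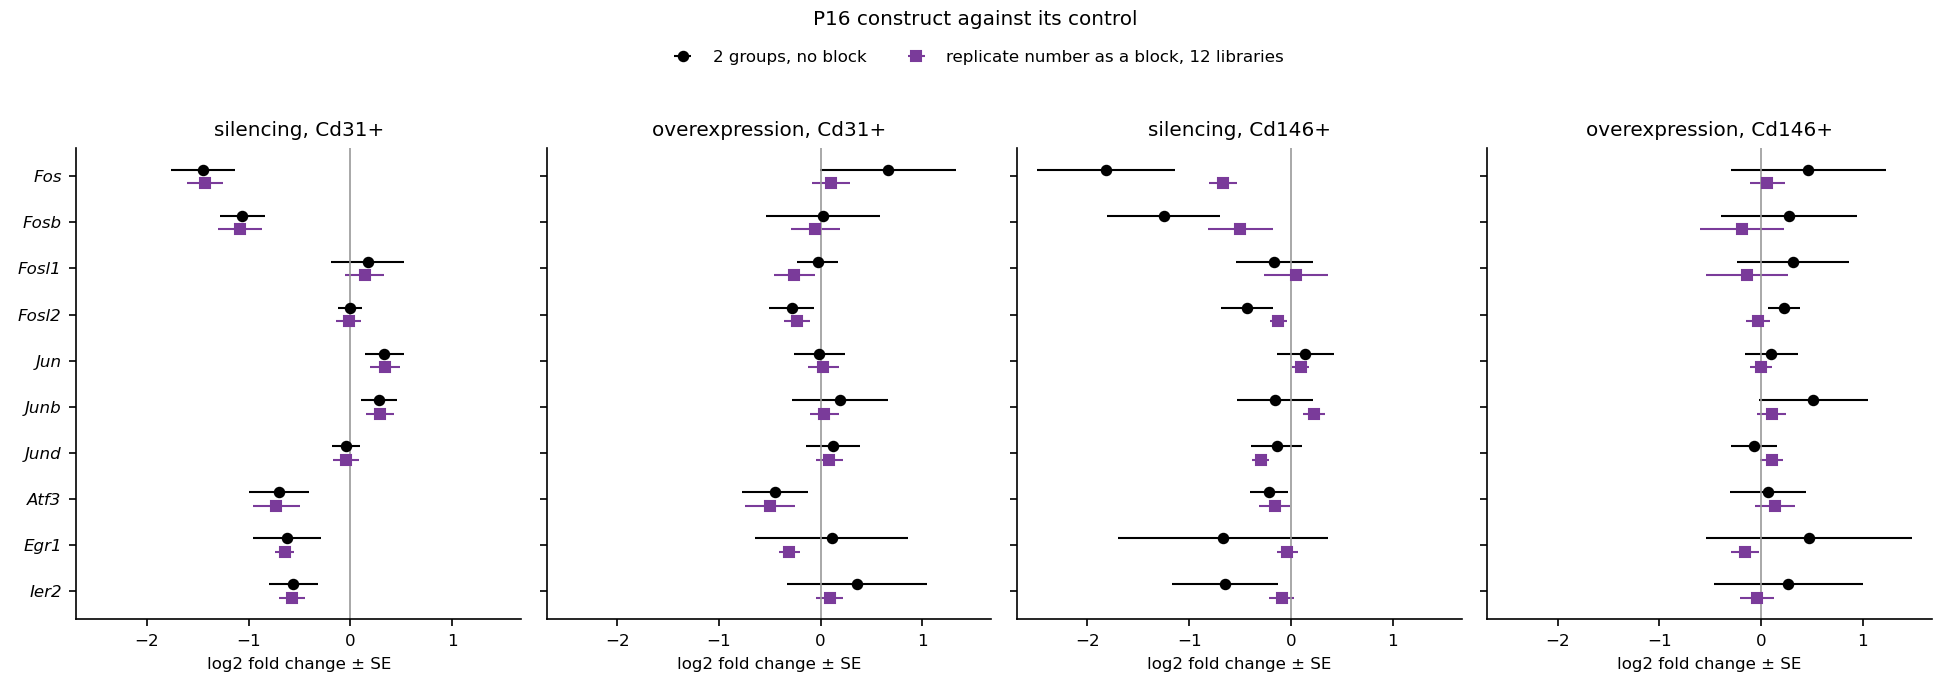
Log2 fold change of each gene against its control (horizontal axis, log2, with the SE as error bar) in the 4 comparisons, from the 2 groups without a block (black) and from all 12 libraries of the population with the replicate number as a block (purple squares). Fos and Fosb lie at -1.45 and -1.06 in Cd31+ silencing in the first fit, and in Cd146+ overexpression the block brings all 10 genes to between -0.19 and 0.13.

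The control constructs were compared with each other to see whether the vector itself mattered. Between nc shRNA and empty vector, 0 of 10 members passed in Cd31+ cells, beside 3.16% of all genes unadjusted and 0% after adjustment, and 0 in Cd146+ cells, beside 3.99% and 0% (edgeR). Fos was the member nearest to the threshold, with a log2 difference of 0.82 in Cd31+ cells (SE 0.39, adjusted p = 0.992), where nc shRNA holds no library with Xist and empty vector holds 1. Between the Cd31+ controls, DESeq2's Wald test called 1 member unadjusted, Fos (0.81), and the replicate block called 2, Fosl1 (-0.45) and Jund (-0.39) in the 6-library fit. With a term for the Xist libraries, 1 member passed unadjusted in each population, Jund in Cd31+ cells (-0.41) and Egr1 in Cd146+ cells (-0.47). The 3.16% and 3.99% do not belong to these alternative fits, whose shares of all genes are not given here. Whether their counts exceed the background is thus not shown.

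Between the populations, all 10 members had a log2 difference below 0 in Cd146+ against Cd31+ cells, from -0.62 (Ier2) to -0.07 (Jund). Jun alone passed at an unadjusted p under 0.05, at -0.35 (SE 0.14, adjusted p = 0.138, edgeR over 24 libraries), beside 25% of all genes, and 0 members passed after adjustment, beside 6.61%. The Cd146+ libraries hold 6 of the 8 with Xist. With a term for the sets, the difference of Jun was -0.18 (adjusted p = 0.328), and those of Egr1 and Fos were 0.20 and 0.38. Without the 3 Cd146+ libraries of low endothelial markers, Jun passed after adjustment, at -0.54 (adjusted p = 0.0204, edgeR). Those 3 libraries all hold Ddx3y, so libraries with Xist weigh more among the Cd146+ libraries of that fit, which has no term for the sets. Jun was itself lower in the libraries with Xist, as given below. The part of the sets in this value was not tested, and the share of all genes in that fit is not given here.

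After adjustment, 6 of the 10 members differed between the 2 library sets, beside 22.1% of all genes. Egr1 stood at 59.4 to 121 CPM in the 8 libraries with Xist and at 186 to 626 CPM in the 16 with Ddx3y, and Ier2 at 34.7 to 54.1 CPM and 81.2 to 240 CPM. Neither gene overlapped between the sets. With the construct and population in the model, the log2 difference of the Xist libraries was -2.59 for Egr1 (SE 0.19, adjusted p = 2.67e-08), -1.72 for Ier2 (SE 0.18, adjusted p = 3.01e-06) and -1.60 for Fos (SE 0.33, adjusted p = 0.00258, edgeR). Fosb (-1.46, SE 0.18, adjusted p = 2.22e-05), Junb (-1.13, SE 0.16, adjusted p = 9.08e-05) and Jun (-0.55, SE 0.12, adjusted p = 0.00449) also passed. Egr1, Ier2, Fos, Fosb and Junb thus had the widest gaps among the 10 members. Atf3 (-0.49, adjusted p = 0.0508), Fosl1 (-0.45), Jund (-0.27) and Fosl2 (-0.26) did not pass after adjustment.

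In this contrast, 8 of 10 members passed unadjusted, beside 34.9% of all genes, and 6 after adjustment, beside 22.1%, all lower in the Xist libraries. The median was -0.84 over the members and -0.04 over all genes, of which 1884 were higher and 1775 lower after adjustment. Within Cd31+ libraries alone, the values of Egr1, Ier2, Fos, Fosb and Junb were -2.13, -1.87, -1.75, -1.48 and -1.28, and within Cd146+ libraries alone -2.78, -1.60, -1.48, -1.40 and -1.002. In these smaller fits, Fos did not pass after adjustment (adjusted p = 0.0544 and 0.0859). Jund was at -0.66 in Cd31+ libraries (adjusted p = 0.0492, edgeR) and -0.01 in Cd146+ libraries, a difference that was not tested. The Cd31+ values rest on 2 libraries with Xist, both numbered 5, which the test takes as independent. Over both populations without the Cd146+ libraries numbered 3, the values were -2.43 for Egr1, -1.92 for Ier2, -1.95 for Fos and -0.43 for Jund, which then passed unadjusted (adjusted p = 0.110). The sets hold only 3 replicate numbers each, and the test takes the libraries as independent, whereas an exact permutation test of 3 against 3 numbers could give no p below 0.1. Of the 100 genes with the smallest p, 51 were pseudogenes, against 5.92% of those tested. The endothelial sum was 987 to 1619 CPM with Xist and 25.8 to 861 CPM with Ddx3y, and the macrophage sum 14.5 to 353 CPM and 16.6 to 138 CPM. Their part in the difference was not tested.

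**Figure D5:**
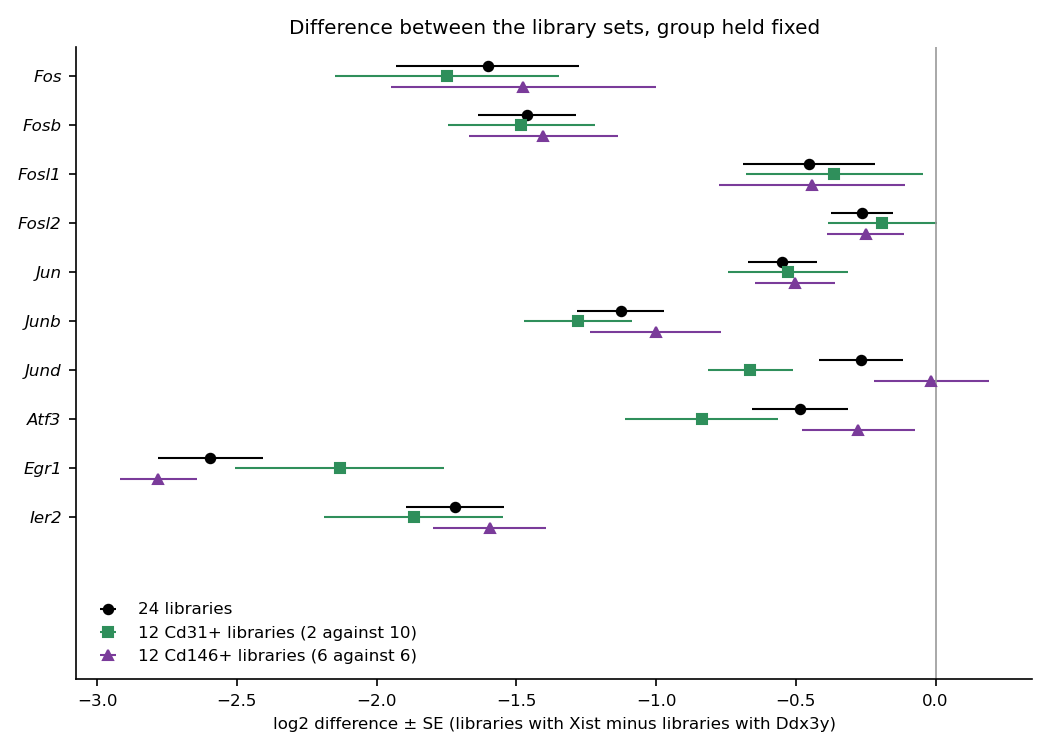
Log2 difference between the libraries with Xist and those with Ddx3y for each gene (horizontal axis, log2, with the SE as error bar), over all 24 libraries and within Cd31+ and Cd146+ libraries alone. Every point lies below 0 in the fit over 24 libraries, from -2.59 for Egr1 to -0.26 for Fosl2.

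The genes around AP-1 were followed as 6 lists. Among 27 other immediate early genes, 8 were lower and 2 higher at an unadjusted p under 0.05 in Cd31+ silencing with edgeR. After adjustment no gene of any of the 6 lists passed. As for the members, the background is 19.8% of all genes unadjusted, and the shares of the upstream genes and of the bZIP partners below lie near it. The lower ones include Egr3 (log2 fold change -1.57), a relative of Egr1, Arc (-2.06), an activity-regulated gene best known from neurons, the kinase gene Plk3 (-0.66) and Ccn1 (-0.75), a matricellular protein. Socs3, an inhibitor of cytokine signalling, was higher (0.49). Of 11 tested feedback regulators, which switch the same signals off, 6 were lower and none higher. They include Dusp1 (-1.04), Dusp10 (-0.82), Dusp5 (-0.70) and Dusp4 (-0.57), phosphatases of MAP kinases, and Spry4 (-0.43).

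Upstream, among 18 kinases, serum response factor cofactors and TCF factors, 3 were lower, the TCF factor Elk3 (-0.66), the cofactor Mrtfb (-0.51) and the kinase Map2k4 (-0.58), and 2 higher, Map2k2 (0.27) and Map2k1 (0.29). Of 11 tested bZIP partners and relatives 3 were lower, Maff (-0.52), Mafk (-0.49) and Nfe2l2 (-0.39), the last a regulator of antioxidant genes. Of 8 genes of the stress response around Atf3, 1 was lower, Atf5 (-0.43). Known AP-1 targets had no common direction: of 19 tested, 4 were higher and 4 lower. The cytokine Il6 (1.63) and the chemokine Ccl2 (1.96) were among the higher ones, whereas cyclin D1 (Ccnd1, -1.45) and Plau (-0.61) were among the lower ones. The list medians were -0.17 for the other immediate early genes, -0.43 for the feedback regulators, -0.19 upstream, -0.34 for bZIP partners, 0.00 for the stress response and 0.44 for the targets, beside 0.00 over all genes.

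In Cd146+ silencing, where the background is 11.6% of all genes unadjusted, again no gene of the lists passed after adjustment. Among the other immediate early genes, 2 were lower, Arc (-1.50) and the kinase gene Sik1 (-0.95), and Myc was higher (0.70). Of 12 feedback regulators 1 was lower, Dusp1 (-1.03). Of 21 tested targets 4 were higher, among them Il6 (1.52), Ccl2 (1.63) and the adhesion receptor gene Cd44 (0.69), and 2 lower, among them Ccnd1 (-1.49). Of the bZIP partners 1 was lower, of the upstream genes 2, and of the stress response genes 1 was higher. With overexpression, only Mafk (0.33) and Creb1 (-0.44) passed unadjusted in Cd31+ cells, beside 3.73% of all genes. In Cd146+ cells, 9 genes did, beside 3.53%, among them Csrnp1 (1.72), Lif (1.64), Dusp4 (0.90) and Map2k6 (-1.81). Csrnp1 (1.30), Lif (1.44) and Dusp4 (0.93) also passed unadjusted with nc shRNA against the same empty vector libraries, beside 3.99%. Map2k6 did not pass there. The values of Csrnp1, Lif and Dusp4 are thus not particular to overexpression. The part of the shared empty vector libraries in them was not tested.

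Between the library sets, 17 of the 27 other immediate early genes were lower with Xist after adjustment and none higher, where the background is 22.1% of all genes. Egr2 (-2.58) and Egr3 (-2.08) differed most among the 5 with the smallest p, followed by Btg2 (-0.96), which restrains proliferation, Nfil3 (-0.76) and the clock gene Per1 (-0.48). Of 12 feedback regulators 7 were lower, with Zfp36 (-1.23), which destabilises short-lived messengers, and Dusp5 (-0.78), and 1 higher, Dusp2 (1.85). The upstream genes stood nearer together, with 1 of 18 lower, Elk4 (-0.25). Of 14 bZIP partners 4 were higher, among them Batf (2.58) and Crem (0.65), and 3 lower, Jdp2 (-0.47), Atf7 (-0.46) and Mafg (-0.36). Of 8 stress response genes 1 was lower, Atf4 (-0.32). Of 22 targets 3 were higher, Mmp12 (2.08), Ptgs2 (1.73) and Plau (0.54), and 2 lower, Lif (-0.99) and Ccnd1 (-0.54).

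Correlations between members depended on the library sets. Over the 24 libraries, which share populations, numbers and sets, the log2 CPM of Egr1 and Ier2 correlated with a Pearson r of 0.925, Junb and Ier2 with 0.899, Fosb and Egr1 with 0.860 and Fos and Fosb with 0.845, whereas Fosl2 and Jund had an r of -0.0789. Within the 16 libraries with Ddx3y, r was 0.502 for Egr1 and Ier2, 0.534 for Junb and Ier2 and 0.444 for Fosb and Egr1, so these pairs followed each other less closely within that set, whereas Fos and Fosb had an r of 0.811. For Junb and Egr1, r was 0.810 over all libraries and -0.0149 within that set. Among 13619 genes, the pattern of Fos was most like those of Btbd2 (r = 0.911), Appl2 (0.906) and Pxylp1 (0.896), and that of Fosb most like those of Egr3 (0.930), Hps1 (0.879) and Npc1 (0.871). Atf3 had no such close neighbour: its nearest were Dnm1 (0.717), Hspa12a (0.710) and Derl1 (0.697).

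Some counts are uncertain because genes overlap on opposite strands and it is not known whether the counting used the strand. Fosl1, with a mean of 168 counts per library, overlaps Ccdc85b (1054), Junb (5378) overlaps Prdx2 (5766), and Jun (2424) overlaps the antisense gene Junos (16.9). Fosb was the least abundant member, and its lowest library, at 1.32 CPM, still lay above the 0.106 to 0.204 CPM that 3 counts make in these libraries.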

How the data were processed

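Poly-A RNA libraries of 24 cultures, 3 for each of 2 populations and 4 constructs, were sequenced and analysed by a company. The deposited counts are whole numbers of reads per gene, not normalized. Per the labels, reads were cleaned with fastp and the build is mm9. None of the 10 members has the start that it has in GENCODE M21. That annotation is of GRCm38, a build other than mm9, and the starts were not compared with mm9. The build of the table's own coordinates is thus not settled, and the positions printed are those of promoters in RefSeq's GRCm38.p6. The aligner, the counter and the use of strand are not given in the sources used here. The authors also deposited FPKM values and, for each comparison, fold changes and p-values, none of which was used.

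Groups and replicate numbers came from the labels, and all 24 count columns matched a sample. Constructs were tested against their own controls on the 6 libraries of both groups, using edgeR 4.0.16 in R 4.3.3 (filterByExpr, TMM, robust quasi-likelihood fit, two-sided test, Benjamini-Hochberg over all 14358 to 15124 genes tested), and the populations, the differences between their effects and the library sets over 24 libraries (16524 genes), with thresholds of 0.05. CPM are TMM-normalized over 24 libraries, log2 CPM used a prior count of 0.5, and 3 counts were taken as the floor. A library was put in the Xist set at 1000 or more counts of Xist. The scripts were tested on simulated data. No pair of replicates was as close as sampling noise.

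After group means were taken out, libraries of one replicate number correlated with a median r of 0.474 in Cd31+ cells (13 pairs, lowest 0.321) and 0.686 in Cd146+ cells (10 pairs, lowest 0.379), libraries of different numbers with -0.156 and -0.0755, so the numbers were taken to pair libraries within a population. Across populations the median was 0.0988. The numbers come from the labels.

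The members, the 6 lists and the markers were chosen with earlier results of these data known. Named were all members, Cdkn2a, and of each list the 5 genes with the smallest p among those at an unadjusted p under 0.05, of which some are printed and 1 is not reported here. As alternatives, the low count filter was replaced by a minimum of 1 count in all or by a mean count of 10 or more, and the others were library totals or DESeq2 1.42.0 size factors, DESeq2's Wald test, the replicate block, a Ddx3y covariate and leaving out single libraries. Chosen only after seeing the data were fits on Ddx3y libraries only, the term for the Xist libraries, the contrast of the library sets and leaving out the Cd146+ libraries numbered 3.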

Additional observations from a re-analysis of the deposited data

How the results depend on the processing

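The levels of the members by group stayed within the spread between libraries under library totals and DESeq2 size factors in 160 of 160 values. Depth limits Fosb most, and 3 libraries a group limit every test. The causes of the changes below were not tested beyond the settings themselves. The share of all genes called also moved with the setting, so a change in a count of members is not a result about the members. In Cd31+ silencing, that share was 19.8% unadjusted and 1.3% adjusted without a block. With the block over 2 groups it was 33.9% and 18.8%. For most other settings below, the share of all genes is not given here.

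With all genes of at least 1 count, Cd31+ silencing gave 7 members unadjusted and 4 adjusted, in place of 3 and 0, and Fosl2 turned to 0.0072. DESeq2's Wald test gave 5 and 2 there, 2 unadjusted in Cd146+ silencing in place of 1, and 1 between the Cd31+ controls in place of 0.

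With the replicate block over 2 groups, Cd31+ silencing gave 6 and 4 members, Cd146+ silencing 2 unadjusted and the Cd31+ controls 2 (Fosl1 and Jund). In Cd146+ silencing Fosl1 turned to 0.078 and Junb to 0.19, and in Cd31+ overexpression Egr1 to -0.34 and Fos to -0.047. With the replicate block over 12 libraries, the counts were 6 and 4 for Cd31+ silencing, 1 for Cd31+ overexpression (Egr1), 2 and 1 for Cd146+ silencing and 2 for the Cd31+ controls. Here Cd31+ overexpression turned to -0.31 for Egr1, -0.052 for Fosb and 0.025 for Jun, and Cd146+ silencing to 0.047 for Fosl1 and 0.23 for Junb. Cd146+ overexpression turned to -0.16 for Egr1, -0.19 for Fosb, -0.14 for Fosl1, -0.032 for Fosl2, -0.042 for Ier2, -0.0022 for Jun and 0.10 for Jund. With the block across populations, 0 members differed between them, with Egr1 at 0.21 and Fos at 0.22. With the block within populations, 3 members passed unadjusted for the difference between the responses to silencing. The block changed no other count of members by over 1.5 times. No paired analysis was possible because the groups share only number 5 in the 6-library fits of Cd146+ overexpression and Cd146+ controls.

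With the Ddx3y covariate, counts were 3 adjusted for Cd31+ silencing, 1 for Cd31+ overexpression, and 0 for Cd146+ silencing and between populations. Fosl2 turned to 0.012 in Cd31+ silencing, Egr1 to 0.018 and Junb to 0.17 in Cd146+ silencing, and Egr1 to 0.21 and Fos to 0.38 between populations. In Cd146+ overexpression Atf3 turned to -0.013, Egr1 to -0.50, Fos to -0.31, Fosb to -0.25, Ier2 to -0.42 and Jun to -0.079. With Ddx3y libraries only, counts were 1 for Cd31+ overexpression (2 libraries against 2) and 0 between populations. In Cd146+ silencing this leaves 1 P16 shRNA library against 2 with nc shRNA. In Cd146+ overexpression it leaves 2 P16 libraries against 1 with empty vector. For these, only the values are given. Values turned to 0.037 for Fosl1 and 0.00036 for Jun in Cd31+ overexpression, 0.12 for Egr1 and 0.50 for Fosl1 in Cd146+ silencing, and 0.38 for Egr1 and 0.16 for Fos between populations. In Cd146+ overexpression, they turned to -0.58 for Atf3, -0.22 for Egr1, -0.27 for Fosb, -0.28 for Fosl1, -0.26 for Ier2, -0.15 for Jun and 0.10 for Jund. The term for the Xist libraries left 0 members in Cd146+ silencing and between populations and gave 1 between the controls of each population. With it, Egr1 turned to -0.025 and Fosb to -0.0050 in Cd31+ overexpression, Junb to 0.26 in Cd146+ silencing, and Egr1 to 0.20 and Fos to 0.38 between populations. In Cd146+ overexpression, Egr1 turned to -0.39, Fos to -0.21, Fosb to -0.11, Ier2 to -0.24 and Jun to -0.054. Without the Cd146+ libraries numbered 3, Jun turned to -0.14 in Cd146+ overexpression, 0 members were left in Cd146+ silencing and 1 (Jun) passed after adjustment between populations. The libraries left out all hold Ddx3y, so in that fit the populations differ further in their share of libraries with Xist. Between the library sets, Jund was -0.43 without those libraries and -0.66 in Cd31+ libraries alone, against -0.27.

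Leaving out 1 library at a time gave 2 to 4 members in Cd31+ silencing, 0 to 2 in Cd146+ silencing, 0 to 1 in Cd31+ overexpression, between the controls of each population and for both differences of effect, 0 to 3 between populations, and 6 to 9 unadjusted and 6 to 7 adjusted between the library sets. Over all genes, these fits called 1990 to 2893 unadjusted in Cd31+ silencing and 815 to 2350 in Cd146+ silencing. Between the library sets they called 4796 to 5990 unadjusted and 2185 to 3815 adjusted. Values that turned sign ranged from -0.077 to 0.44 (Fosl1), -0.10 to 0.048 (Fosl2) and -0.18 to 0.049 (Jund) in Cd31+ silencing, and from -0.66 to 0.022 (Fosl1), -0.073 to 0.42 (Jun), -0.43 to 0.24 (Junb) and -0.44 to 0.019 (Jund) in Cd146+ silencing. In Cd31+ overexpression they ranged from -0.28 to 0.67 (Egr1), -0.32 to 0.48 (Fosb), -0.13 to 0.11 (Fosl1), -0.14 to 0.81 (Ier2), -0.23 to 0.21 (Jun), -0.082 to 0.54 (Junb) and -0.11 to 0.34 (Jund). In Cd146+ overexpression they ranged from -0.22 to 0.49 (Atf3), -0.57 to 0.88 (Fos), -0.069 to 1.09 (Fosb), -0.11 to 0.67 (Fosl1), -0.24 to 1.14 (Ier2), -0.14 to 0.33 (Jun), -0.024 to 1.04 (Junb) and -0.22 to 0.15 (Jund), and between populations from -0.36 to 0.022 (Fos).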
